A study of Mus musculus with 15 samples.

Results

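Dendritic cells exposed to hydrogen peroxide (H2O2, a diffusible oxidant) were set against non-treated cells across all genes of a mouse expression array. The comparison used the 3 arrays titled H2O2 and the 3 titled non-treated, 6 of the 15 arrays of the series. The other 9 arrays held 3 each of cells given the contact allergen DNFB, the flavoenzyme inhibitor DPI, or DPI + DNFB. All cells were of 1 dendritic cell line that came from the epidermis of newborn mice of the A/J background, so every group shares that background and no result extends to other dendritic cells by itself. The labels give no dose of H2O2, no exposure time and no time of harvest. They call the controls non-treated, whereas the design text of the series names vehicle, so a solvent on those cells is possible and was not recorded. Whether replicate arrays stand for separate cultures is not recorded, and the p-values therefore cover only the spread between arrays, which may be technical. Of 18193 genes with a single symbol on the array, 12701 gave enough signal to be tested.

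Hydrogen peroxide crosses membranes and oxidises reactive cysteines in phosphatases, kinases and the sensor protein KEAP1, which otherwise marks the transcription factor NRF2 for degradation. Cells answer with kinase-driven early genes, with chaperones where proteins misfold, with NRF2 targets that restore thiols, and with checkpoint genes that hold back division. Dendritic cells sample antigen in an immature state and, once they sense danger, display costimulatory ligands such as CD80 and CD83, secrete chemokines and present antigen to T cells.

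Signals are intensities rescaled so that every array had the same trimmed mean. Folds are on the log2(signal + 15) scale, which understates the change of dim genes. A gene is said to have risen, fallen or passed where limma's adjusted p was below 0.05. The 3 H2O2 arrays correlated with each other at r between 0.962 and 0.965, the 3 non-treated arrays at 0.969 to 0.973, and arrays of different groups at 0.929 to 0.937, all across genes, which are not replicates. The beta-actin 3'/5' ratio, which rises when RNA is broken or incompletely copied, was 1.26, 1.31 and 1.41 on the H2O2 arrays, against 1.25, 1.25 and 1.25 on the non-treated arrays; its part in the results was not tested beyond a fit that held it constant, which gave 1383 genes higher and 2225 lower. Replicate 1 of both groups had been deposited with a scaling target of 250 and replicates 2 and 3 with one of 500.

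The label was checked against marker genes. All 12 dendritic and Langerhans cell markers on the array gave enough signal to be tested, with a median at percentile 85.4 of all probe sets. Their summed signal was 87989 to 101198 on the H2O2 arrays and 74694 to 88545 on the non-treated arrays. Most of that sum came from the antigen presentation genes H2-Aa and Cd74, neither of which passed with all arrays. Among the 12 markers 1 rose (8.33%, against 10.9% of all genes) and 2 fell (16.7%, against 17.4%). This sum, too, does not stand for every member. The Langerhans cell lectin Cd207 was dim, at 80.5, 354 and 243 on the H2O2 arrays and 92.6, 223 and 90.6 on the non-treated arrays. All 8 macrophage and monocyte markers were also measured, at percentile 83.2, and summed to 14018 to 19290.3 on the H2O2 arrays and 19706 to 23876 on the non-treated arrays. Most of the non-treated sum was Csf1r, which fell, while Cd14 rose. Of the 8 markers 2 rose and 2 fell, so the sum does not stand for all of them. Of the 9 keratinocyte markers only 3 were bright enough to test, at a median percentile of 23.8. Markers of fibroblasts, melanocytes, T cells, B cells, mast cells, neutrophils and endothelial cells had median percentiles between 30.3 and 45.1. Summed neutrophil markers were 825 to 933 with H2O2 and 341 to 665 without, where the members S100a8, S100a9 and Camp were too dim to test. The 1 marker of this type that rose was myeloperoxidase, Mpo, at 400.5, 531 and 335 with H2O2 and 158, 57.2 and 142 without. Summed mast cell markers were 1242 to 1375 with H2O2 and 1993 to 2317 without, mostly from the stem cell factor receptor Kit, while Cpa3, Fcer1a and Ms4a2 were too dim to test. The part of such cells in any result was not tested, and in a bulk sample fewer cells of a type cannot be told apart from less RNA per cell.

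H2O2 raised 1380 genes, 10.9% of those tested, and lowered 2211, 17.4%. These shares are the background for each count of list members that rose or fell below. At least 2-fold changes were found for 362 higher genes (2.85%) and 609 lower ones (4.79%). The median log2 fold change of all genes was -0.06. Split by signal into 4 equal bins, the brightest bin held 647 genes that rose and 611 that fell, and the dimmest 96 and 117. The groups did not overlap for 18.0% of all genes with H2O2 above and 24.8% with H2O2 below, whether or not they passed. Arrays with the higher deposited target alone gave 967 higher and 1503 lower, and those with the lower target alone 719 and 1065. Without rescaling only 100 were called higher and 73 lower, a split that leans up where the rescaled values lean down.

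**Figure D1:**
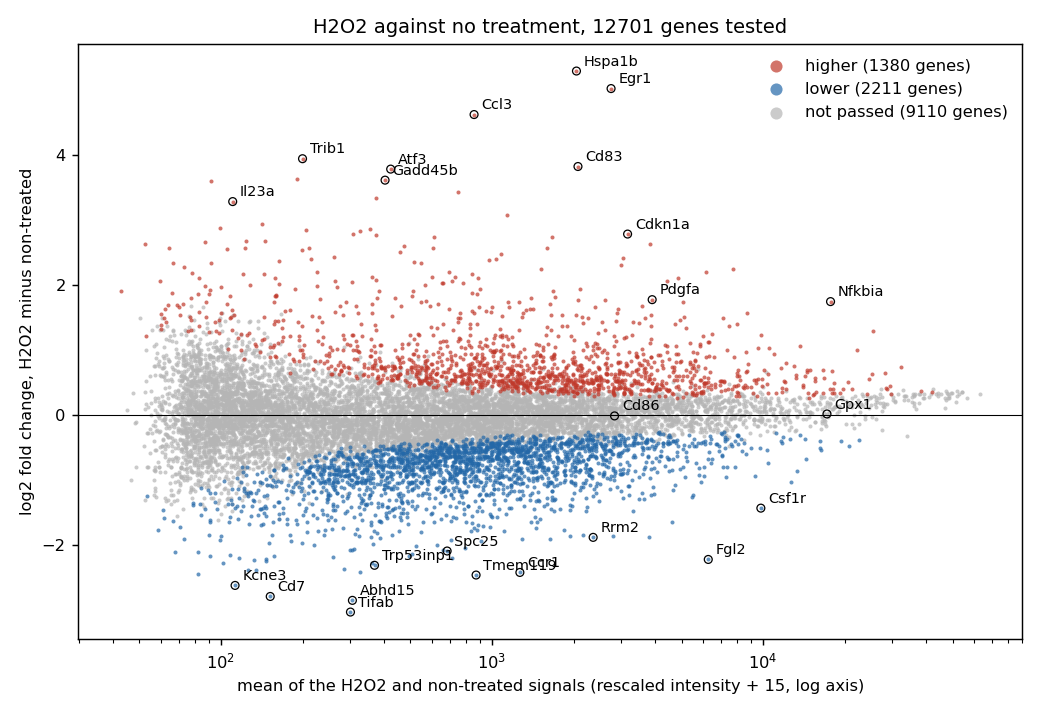
Log2 fold change of H2O2 over non-treated for each of the 12701 genes tested, against the mean signal of both groups on a log axis; red points passed as higher, blue as lower, grey did not pass, and circles mark named genes. Rises reach 5.29 (Hspa1b) and falls -3.04 (Tifab), and dim genes at the left need a larger change to pass.

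The steepest rise was that of Hspa1b, an inducible HSP70 chaperone that holds unfolded proteins. Its signals were 9739.8, 17043 and 12562 on the H2O2 arrays, against 151, 491 and 405 on the non-treated arrays. Every H2O2 array lay far above every non-treated array, a 39.0-fold rise (log2 5.29 ± 0.511 SE, 3 arrays in each group, adjusted p = 2.24e-07 by limma). Next came the immediate early transcription factor Egr1, at 10385, 23824 and 15408 with H2O2 and 952, 522 and 202 without. The chemokine Ccl3, which draws in monocytes and T cells, stood at 5136, 4233 and 3518 with H2O2 and 284, 126 and 108 without, a 24.6-fold rise. These 3 genes did not overlap between the groups, which was a condition for naming the 15 largest rises. The maturation marker Cd83 had the smallest SE among the 15 largest rises, at 7759.9, 7864 and 7767 with H2O2 and 624, 584 and 423 without (14.2-fold, log2 3.82 ± 0.133, adjusted p = 2.8e-13).

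Trib1, a pseudokinase that steers proteins such as C/EBP factors to degradation, was 719.6, 859 and 734 with H2O2 and 19.7, 126 and 12 without. Its log2 fold change of 3.94 became 4.68 without non-treated replicate 2, the brightest control array. Also among the 15 largest rises were the stress factor Atf3 (13.8-fold), the growth brake Gadd45b (12.2-fold), the neutrophil chemokines Cxcl2 (10.8-fold) and Cxcl3 (7.64-fold), the nuclear receptor Nr4a3 (10.1-fold), the IL-23 subunit Il23a (9.70-fold) and the small MAF factor Maff (8.40-fold). Fam167a rose 12.4-fold and Hhipl2 7.36-fold. Cdk5r1, the activator of the kinase CDK5, had a mean of 305 with H2O2 and 11.5 without, which lies under the added 15, so its 12.1-fold rise depends on that constant. None of these genes had a non-treated array as high as an H2O2 array, since genes with overlap were left out of the 15.

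Tifab, an inhibitor of TIFA and TRAF6 signalling, fell most. It gave 31.2, 141 and 145 with H2O2, against 962, 982 and 642 without, a log2 fold change of -3.04 ± 0.415 (adjusted p = 1.47e-05) that was -2.45 without H2O2 replicate 1, the dimmest array. Abhd15 was tighter, at 111, 105 and 82 with H2O2 and 759.6, 824 and 838 without (log2 -2.86 ± 0.204, adjusted p = 5.6e-09). The groups were apart for both genes. Cd7, an immunoglobulin-family receptor best known from T and NK cells, gave 70.5, 46.2 and 21.6 with H2O2 and 569, 337 and 299 without. The potassium channel subunit Kcne3 was at 80.5, 37.4 and 3.65 with H2O2 and 294, 258 and 244 without, and its log2 fold change of -2.63 became -1.98 without H2O2 replicate 3.

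Several of the other large falls were surface receptors. The chemokine receptor Ccr1, which binds the product of Ccl3, fell to 489.5, 605 and 503 on the H2O2 arrays, against 3249, 2779.8 and 2782 on the non-treated arrays (log2 -2.43 ± 0.225, adjusted p = 1.3e-07). Ligand and receptor thus moved in opposite directions. The lysophosphatidylserine receptor Gpr34 was 5.20-fold lower and the NK-type lectin Klrb1b 5.49-fold lower. Klrb1b ranged from 2.2 to 93 on the H2O2 arrays and its log2 fold change of -2.46 was -3.27 without H2O2 replicate 1. Tmem119 fell 5.55-fold, with means of 356 with H2O2 and 2040.2 without. The kinase Sbk1 (5.40-fold), the transporter Abcc10 (5.23-fold), the p53-induced autophagy gene Trp53inp1 (4.99-fold), the kynurenine pathway enzyme Kynu (4.84-fold) and the ubiquitin ligase Marchf1 (4.77-fold) fell as well.

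**Figure D2:**
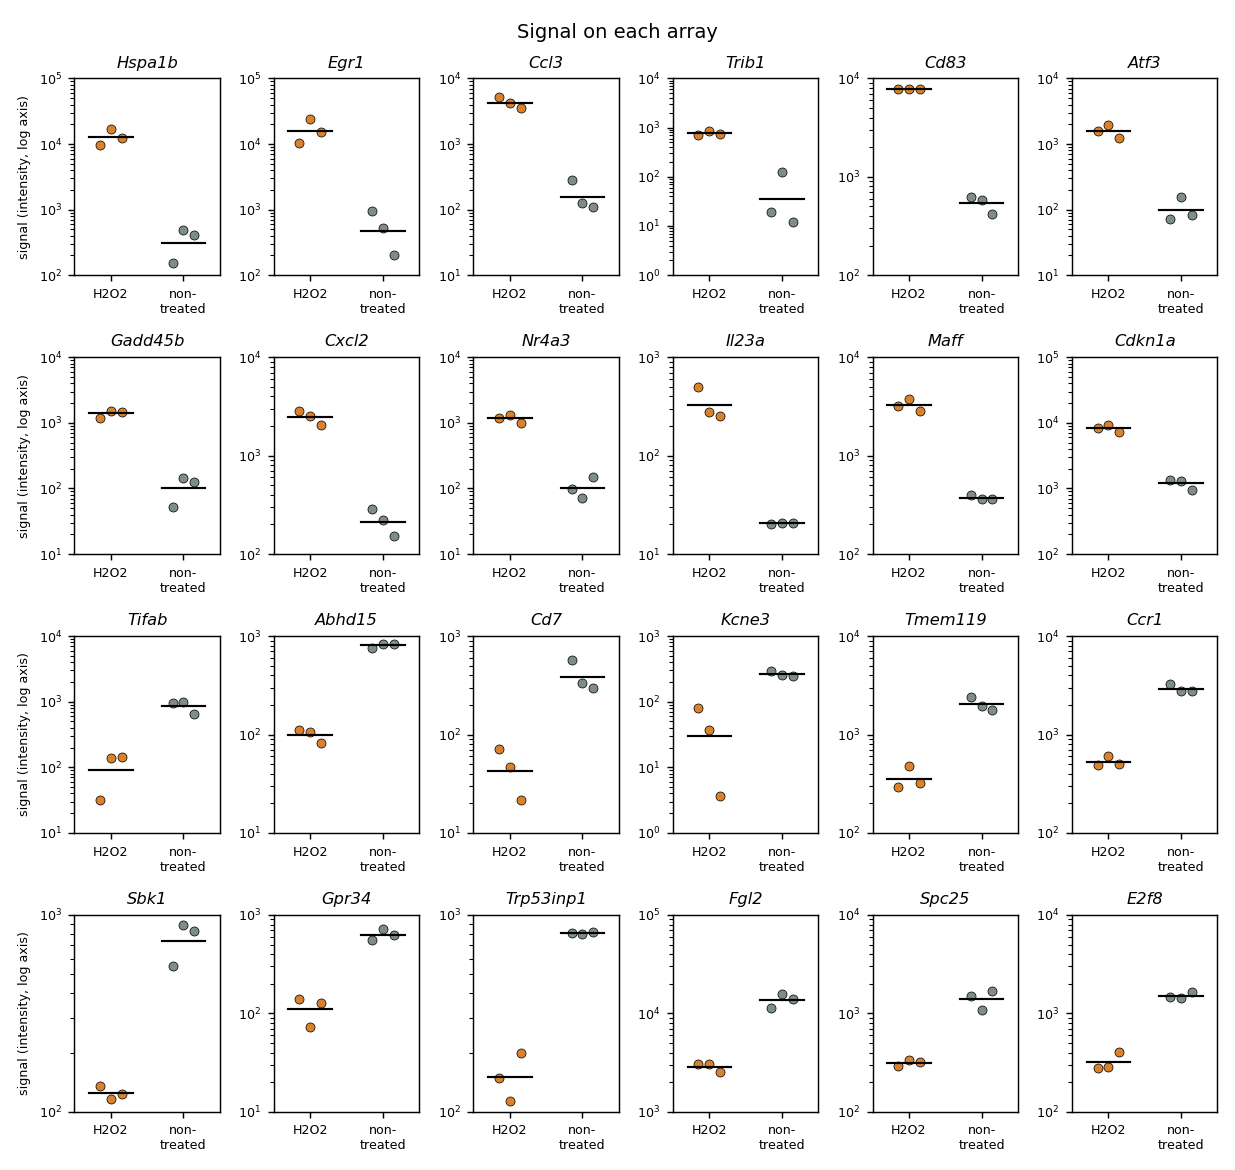
Rescaled signal of 24 named genes on each array, on log axes that differ between panels, with the 3 H2O2 arrays (orange) left of the 3 non-treated arrays (grey); bars are group means on the log scale. The upper 12 panels hold genes that rose, such as Cd83 at 7759.9 to 7864 with H2O2, and the lower 12 genes that fell. The groups do not overlap in any panel, and most of these genes were named under a rule that required it.

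The gene lists were chosen with earlier results of these data known. Their shares and ranks, here and below, are therefore description and not a test. Immediate early transcription factors, which kinases switch on without new protein synthesis, made the list with the highest share of rises. Of 26 measured, 20 rose (76.9%, against 10.9% of all genes tested) and 1 fell, with a median log2 fold change of 1.51 against -0.06 for all genes. Besides Egr1, Atf3, Nr4a3 and Maff, the AP-1 member Fosb was 440.3, 862 and 405 with H2O2 and 82.9, 62.9 and 44.8 without (7.17-fold). Replicate 2 was the highest of the 3 H2O2 arrays for Egr1, Fosb, Fos and Jun. The AP-1 partners Fos and Jun rose 2.86-fold and 2.57-fold. Ier2, an early gene tied to growth and migration, averaged 9501 with H2O2 and 1528 without, a 6.17-fold rise. Nr4a2, a relative of Nr4a3, was the member that fell, by 0.56 on the log2 scale, a call that ended with the mean of its probe sets (-0.04). Myc, the growth-promoting factor often induced with this class, had a log2 change of -0.23 ± 0.127 (adjusted p = 0.195), and Klf10 one of -0.04 ± 0.146.

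RefSeq promoter windows, from 250 bases before to 50 after the start of transcription (build GRCm38.p6), were available for 19 of these 26 genes. The CArG box, bound by serum response factor, was in 2 of 19 (10.5%), against 1.47% of the 10272 tested genes with a window. The cAMP response element TGACGTCA was in 1 of 19 (5.26% against 3.49%) and the AP-1 site TGACTCA in 0 of 19 (0.0% against 4.96%). A match only describes these letters, on either strand, and no match says nothing about the factor. The stretches that held a match are given 5' to 3' along the gene with the match in capitals, for Egr2 and Srf (CArG box, chr10:67537469-67537528 on the plus strand and chr17:46556190-46556269 on the minus strand) and Maff (cAMP response element, chr15:79347466-79347519, plus strand). Their rises differed, with log2 changes of 2.01 for Egr2, 0.46 for Srf and 3.07 for Maff. That of Srf no longer passed without H2O2 replicate 1, H2O2 replicate 2, non-treated replicate 2 or non-treated replicate 3 (between 0.38 and 0.48), or with arrays centred on their median (0.44).
Egr2: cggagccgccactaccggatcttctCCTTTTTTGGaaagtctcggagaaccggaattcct
Srf: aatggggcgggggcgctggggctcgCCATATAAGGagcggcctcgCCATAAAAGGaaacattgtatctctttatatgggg
Maff: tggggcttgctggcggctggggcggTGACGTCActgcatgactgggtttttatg

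Genes that switch such kinase signals off again rose with them. Of 20 MAP kinase phosphatases and feedback inhibitors 12 rose and 2 fell, with a median of 0.94. Dusp8 gave 832, 960.2 and 778 with H2O2 and 131, 117 and 80.2 without (7.09-fold). Dusp1, which dephosphorylates p38 and JNK, rose 6.84-fold, the ERK phosphatase Dusp5 4.95-fold, Dusp16 3.82-fold and the EGF receptor inhibitor Errfi1 2.94-fold. The G-protein brake Rgs16 rose 5.85-fold, with a mean of 240.2 with H2O2 and 28.6 without. Spred2, an inhibitor of RAS signalling, had a log2 change of 0.11 ± 0.175 that did not pass.

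Of 16 genes of mRNA decay and early growth restraint 9 rose and 1 fell, with a median of 0.62. Zfp36, which binds AU-rich elements and speeds the decay of cytokine mRNAs, rose 3.06-fold, at 2042, 3217 and 1903 with H2O2 and 945, 869 and 509 without. Its relative Zfp36l1 rose 2.61-fold, the endonuclease Zc3h12a, which cleaves Il6 and other transcripts, 2.32-fold, and the anti-proliferative Btg1 2.08-fold. Tob1 and Tob2, relatives of Btg1, had log2 changes of -0.28 ± 0.142 and -0.07 ± 0.139 and did not pass.

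NF-kB subunits and the genes that feed back on them followed, with 16 of 22 higher, none lower and a median of 1.01. The signal adaptor Traf1 was 1651, 1698 and 1350.3 with H2O2 and 202, 279.5 and 195 without (6.62-fold, log2 2.73 ± 0.316, adjusted p = 2.15e-06). The ubiquitin-editing brake Tnfaip3, known as A20, rose 4.55-fold and the subunit Relb 4.06-fold. The inhibitor Nfkbia, which holds NF-kB in the cytoplasm and is itself a target of it, averaged 32349 with H2O2 and 9694 without (3.33-fold). Birc3, a ubiquitin ligase of TNF receptor complexes, rose 3.18-fold and Nfkbiz 3.10-fold. The ligase Birc2 (log2 -0.01 ± 0.0968), the kinase Ikbkb (log2 0.13 ± 0.105) and Nfkbid (log2 0.13 ± 0.215) did not pass.

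Of 14 chemokines 6 rose and none fell. After Ccl3, Cxcl2 and Cxcl3 came the interferon-linked chemokine Cxcl10, at 565, 453 and 427 with H2O2 and 36.4, 178 and 69.4 without (5.23-fold), Ccl4 (3.72-fold) and the membrane-bound Cxcl16 (2.64-fold). Ccl2, the main attractant of monocytes, overlapped between the groups, with means of 818 and 888 with and without H2O2. Ccl22, which attracts regulatory T cells, was 592, 557 and 1075 with H2O2 and 263, 253 and 496 without, and its adjusted p of 0.0578 missed the threshold although the groups did not overlap (adjusted p = 0.0327 without non-treated replicate 3).

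Promoter windows with a kappa B motif, the sequence that NF-kB binds, were found for 9 of 18 NF-kB genes with a window (50.0%) and 5 of 9 chemokines (55.6%), against 6.25% of tested genes. Among the NF-kB genes that rose 7 of 13 held it (53.8%), and among those that did not pass 2 of 5. Matches of 4 genes that rose are shown in capitals, for Tnfaip3 (chr10:19015411-19015560, minus strand), Nfkbia (chr12:55492648-55492701, minus strand), Cxcl2 (chr5:90903777-90903837, plus strand) and Cxcl3 (chr5:90786003-90786063, plus strand). They were the 2 of largest change in each list among members with a match before the start of transcription. The runs of Cxcl2 and Cxcl3 read as a match on both strands.
Tnfaip3: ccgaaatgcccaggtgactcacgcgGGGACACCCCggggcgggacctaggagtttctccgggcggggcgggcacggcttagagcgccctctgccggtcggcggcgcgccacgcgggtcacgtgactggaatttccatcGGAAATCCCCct
Nfkbia: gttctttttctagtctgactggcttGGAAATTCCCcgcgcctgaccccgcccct
Cxcl2: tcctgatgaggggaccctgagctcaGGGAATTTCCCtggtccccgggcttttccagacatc
Cxcl3: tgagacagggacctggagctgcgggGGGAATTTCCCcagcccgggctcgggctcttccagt

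Of 26 cytokines and growth factors 11 rose and 3 fell. Il23a, the subunit that pairs with p40 to form IL-23, was 502, 279.7 and 253 with H2O2 and 20, 20.6 and 20.9 without. Growth factors rose beside interleukins: the EGF receptor ligand Hbegf 5.10-fold, Pdgfb 3.69-fold and Pdgfa 3.41-fold. Pdgfa stood at 7226, 7487 and 6829.9 with H2O2 and 2097, 2054 and 2138 without. The alarmin Il1a rose 3.17-fold and Il1b 1.95-fold. Tnf had a log2 change of 0.82 ± 0.459 (adjusted p = 0.201), although its 3 H2O2 arrays, at 592, 819.8 and 856, lay above the non-treated ones at 536, 467 and 285. Of the 3 falls 1 was left without H2O2 replicate 2 or non-treated replicate 1. The death ligand Tnfsf10 had a log2 change of -1.41 ± 0.397, a call that ended without H2O2 replicate 2 (-1.16) or non-treated replicate 1 (-1.27).

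Of 21 costimulation and maturation genes 10 rose and 2 fell, with a median of 0.82. Cd80, a ligand of CD28 on T cells, was 2590.4, 2086 and 2405 with H2O2 and 424, 463 and 417 without (5.27-fold). Its partner Cd86 overlapped between the groups, at 2552, 2886 and 2954 with H2O2 and 2397, 3482 and 2742 without. The adhesion ligand Icam1 rose 4.16-fold, the cytokine signalling inhibitors Cish and Socs3 4.07-fold and 3.97-fold, and the receptor Cd40, through which T cells license dendritic cells, 2.92-fold. The actin bundler Fscn1, a marker of mature dendritic cells, had a log2 change of 0.14 ± 0.29 that did not pass.

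Of 14 MHC class II genes none rose and 4 fell (28.6%, against 17.4% of all genes). The class II chain H2-Aa and the invariant chain Cd74 had log2 changes of 0.13 ± 0.131 and 0.32 ± 0.133, neither of which passed with all arrays; Cd74 passed without non-treated replicate 1 (log2 0.41). Marchf1, which removes MHC class II and CD86 from the surface, was 25.7, 73.4 and 68.7 with H2O2 and 237, 388 and 307 without. The class II gene activator Rfx5 fell 2.01-fold, the peptide exchange subunit H2-DMb2 1.43-fold and the thiol reductase Ifi30 1.33-fold. Of 13 MHC class I genes 2 rose (15.4%, against 10.9% of all genes), by 1.27-fold each for B2m and H2-K1, and 4 fell (30.8%, against 17.4%). The falls included the immunoproteasome subunits Psmb8, Psmb9 and Psmb10, at most by 0.51 on the log2 scale. Leaving out single arrays ended some or all of the calls of B2m, H2-K1 and these 3 subunits, and left between 1 and 4 class I genes lower: the arrays were H2O2 replicate 1, H2O2 replicate 2, H2O2 replicate 3, non-treated replicate 1, non-treated replicate 2 and non-treated replicate 3.

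**Figure D3:**
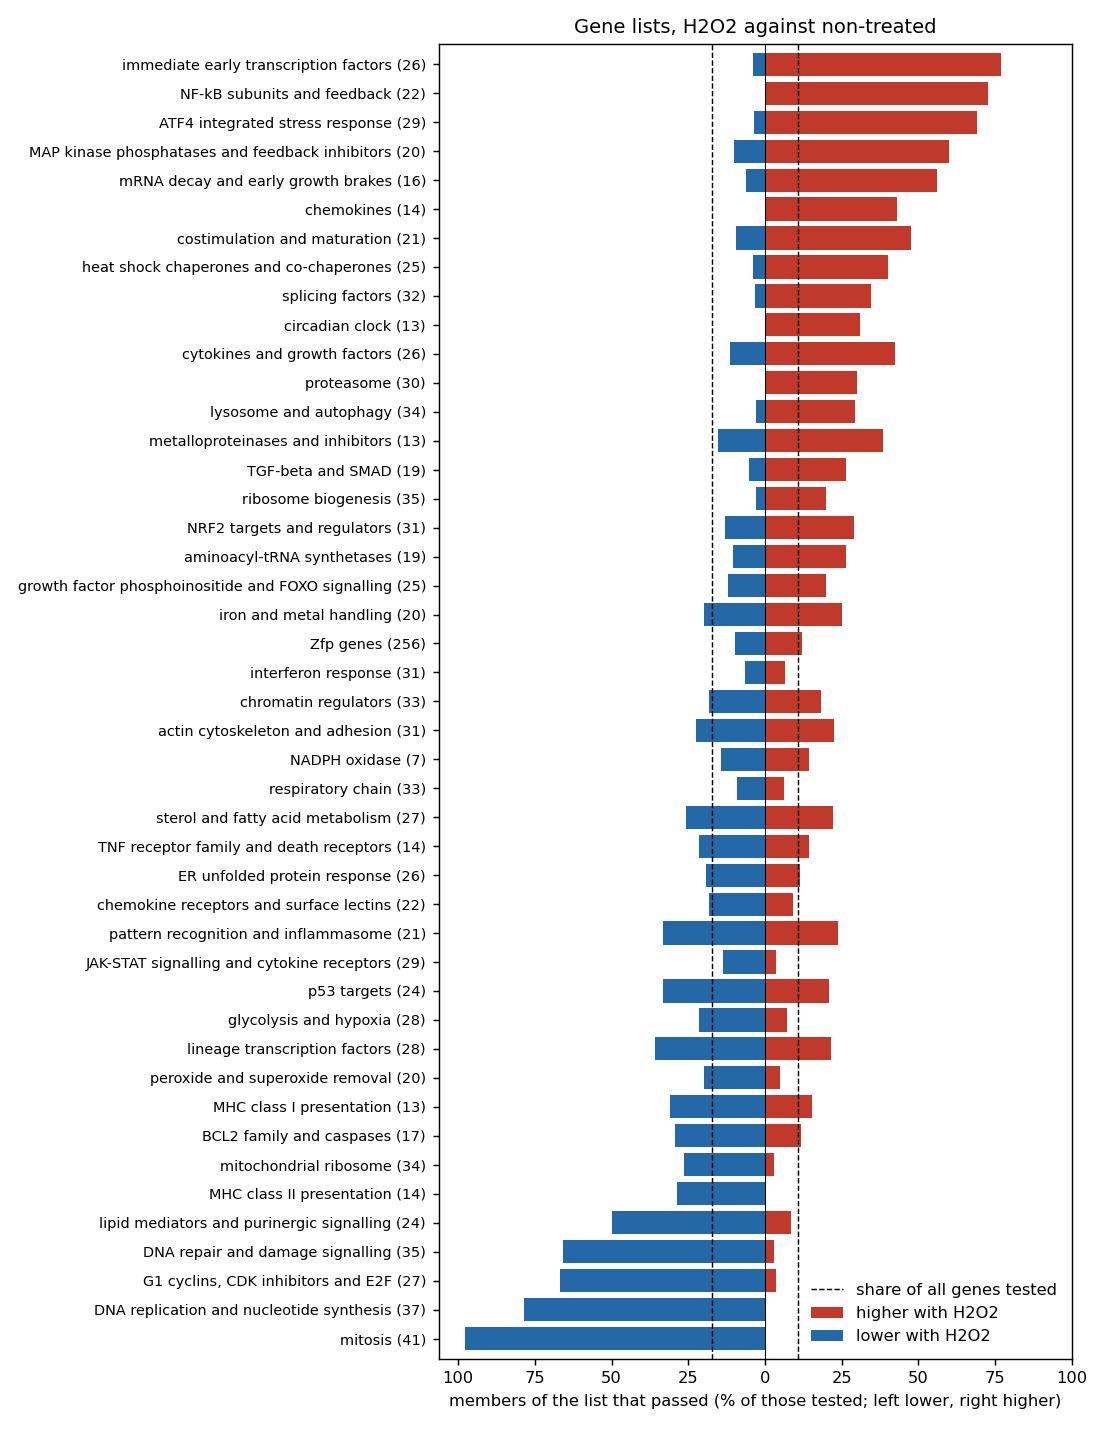
Share of the measured members of each gene list that passed as higher (red, right) or lower (blue, left) with H2O2, with the number of members tested in brackets; dashed lines mark the shares among all genes tested, 10.9% higher and 17.4% lower. Immediate early factors stand at the top with 76.9% higher and mitosis genes at the bottom with 97.6% lower. The lists were chosen with earlier results of these data known.

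Of 28 lineage transcription factors 6 were higher (21.4%, against 10.9% of all genes) and 10 lower (35.7%, against 17.4%). Irf8, needed for the development of one branch of dendritic cells, was 4461, 4748 and 4581 with H2O2 and 2091, 2169.9 and 1801 without (2.27-fold). Irf4, Cebpb and Ets2 rose 2.11-fold, 2.13-fold and 2.12-fold; Irf4 no longer passed with the mean of its probe sets (log2 0.47). Myb, a factor of immature blood cells, fell to 34.8, 55.7 and 23 on the H2O2 arrays, against 224, 155 and 277 on the non-treated arrays. The myeloid master factor Spi1, known as PU.1, had a log2 change of -0.08 ± 0.176, and Id2 one of -0.33 ± 0.156. Neither passed.

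Growth factor receptors were among the falls. Csf1r, the receptor of M-CSF and IL-34 that Langerhans cells need to persist, was 4990.2, 7149 and 5861 with H2O2 and 15075, 18634 and 14992 without (log2 -1.44 ± 0.12, adjusted p = 3.53e-08). Kit fell 2.06-fold and the shared GM-CSF receptor chain Csf2rb 1.32-fold (adjusted p = 0.0647 without H2O2 replicate 2). In the list of 29 JAK-STAT and cytokine receptor genes 4 fell (13.8%, against 17.4% of all genes) and 1 rose (3.45%, against 10.9%). The one that rose was the survival kinase Pim1 (3.83-fold). Of 22 chemokine receptors and surface lectins 2 rose (9.09%, against 10.9% of all genes) and 4 fell (18.2%, against 17.4%), with Ccr1 in front. Leaving out H2O2 replicate 2 or 3 or non-treated replicate 2 or 3 left as few as 0 higher, and leaving out single arrays left 1 to 3 lower, the fewest among them without H2O2 replicate 3 or non-treated replicate 2.

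Of 21 pattern recognition genes 5 were higher (23.8%, against 10.9% of all genes) and 7 lower (33.3%, against 17.4%). The endotoxin co-receptor Cd14 rose to 5888, 8184 and 7181 on the H2O2 arrays, against 1443, 1331 and 1159 on the non-treated arrays (5.33-fold), and the inflammatory caspase Casp4 rose 3.02-fold. The double-stranded RNA receptor Tlr3 fell 3.60-fold and the DNA-sensing adaptor Sting1 2.35-fold. Tlr4, the partner of CD14, had a log2 change of -1.03 ± 0.29, which no longer passed without non-treated replicate 2 (-0.91, adjusted p = 0.0537) or with the mean of its probe sets (-0.51). The count of rises was 3 without H2O2 replicate 1, non-treated replicate 2 or non-treated replicate 3. The Toll-like receptor adaptor Ticam1 rose 2.24-fold, and Myd88 did not pass (log2 0.15 ± 0.132).

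Among 31 interferon response genes 2 rose (6.45%, against 10.9% of all genes), 2 fell (6.45%, against 17.4%) and the median was 0.36. Rsad2, an antiviral enzyme, was 1701, 1768 and 725 with H2O2 and 335, 458 and 191 without (4.05-fold), while the deISGylase Usp18 fell 2.05-fold. Replicate 3 was the lowest of its group for Rsad2 in both groups. Ifit1 rose 2.14-fold, a call that ended without H2O2 replicate 1, H2O2 replicate 2, non-treated replicate 1 or non-treated replicate 3 (log2 between 0.89 and 1.03). The count of rises lay between 1 and 7 when H2O2 replicate 1, 2 or 3 or non-treated replicate 1 or 3 was left out, and with replicate number as a block 12 genes of this list passed as higher. Oas1a, Ifi35 and Bst2 did not pass.

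Of 25 heat shock chaperones and partners 10 rose and 1 fell, with a median of 0.31. The co-chaperone Dnajb1, which activates HSP70, was 4645, 8557 and 5719 with H2O2 and 2091, 2300.4 and 2153 without (2.79-fold). Bag3, which hands HSP70 clients to autophagy, rose 2.50-fold, the nucleotide exchange factor Hsph1 2.32-fold and the cytosolic HSP90 gene Hsp90aa1 1.66-fold. Hspa1a, whose sequence is nearly identical to that of Hspa1b so that probes may not separate them, rose 6.17-fold at low signal, with means of 115 with H2O2 and 6.13 without, under the added 15. The constitutive Hspa8 (log2 0.31 ± 0.163) and the mitochondrial chaperone Hspd1 (log2 0.18 ± 0.123) did not pass, though Hspa8 did with the mean of its probe sets (log2 0.68). Replicate 2 was the highest H2O2 array for Hspa1b, Dnajb1, Bag3 and Hsph1.

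A heat shock element, searched as GAANNTTC or TTCNNGAA on both strands, was in the promoter windows of 13 of 21 genes of this list (61.9%), against 14.2% of tested genes. It was in 5 of the 8 members that rose and had a window (62.5%) and in 7 of the 12 that did not pass (58.3%). The stretch around the match is the same in Hspa1b (chr17:34959310-34959367) and Hspa1a (chr17:34972228-34972285), both on the minus strand.
Hspa1b: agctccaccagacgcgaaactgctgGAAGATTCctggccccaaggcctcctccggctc
Hspa1a: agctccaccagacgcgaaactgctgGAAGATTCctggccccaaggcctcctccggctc

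The integrated stress response, in which kinases slow translation while the factor ATF4 is made, was the list with the third highest share of rises. Of 29 members 20 rose (69.0%) and 1 fell, with a median of 0.78. Atf4 itself was 11586, 12424 and 11661 with H2O2 and 5118, 3544 and 4178 without (2.80-fold). The stress coactivator Nupr1 rose 4.48-fold, Ppp1r15a, which restarts translation, 4.34-fold, the death-linked factor Ddit3, known as CHOP, 4.33-fold and the pseudokinase Trib3 3.46-fold. Cth, which makes cysteine from cystathionine, rose 2.69-fold. The serine synthesis enzymes Phgdh (log2 -0.03 ± 0.145) and Psph (log2 0.15 ± 0.128), also ATF4 targets, did not pass. Of 19 aminoacyl-tRNA synthetases 5 rose and 2 fell, among them the alanine enzyme Aars (2.01-fold) and the serine enzyme Sars (1.45-fold); without H2O2 replicate 1, H2O2 replicate 2 or non-treated replicate 3 the number of rises fell to as few as 2.

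The composite C/EBP-ATF site TGATGNAA, on either strand, was in the windows of 6 of 25 ATF4 list members (24.0%), against 2.89% of tested genes. It was in 5 of 16 that rose (31.2%) and 1 of 8 that did not pass (12.5%). The stretches of Nupr1 (chr7:126625548-126625605, minus strand) and of Chac1, a glutathione-degrading enzyme (chr2:119351024-119351081, plus strand), are given with the match in capitals.
Nupr1: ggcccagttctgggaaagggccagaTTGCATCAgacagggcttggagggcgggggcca
Chac1: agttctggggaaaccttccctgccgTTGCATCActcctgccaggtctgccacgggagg

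Stress genes of the endoplasmic reticulum did not rise as a list. Of 26 unfolded protein response genes 3 rose (11.5%, against 10.9% of all genes) and 5 fell (19.2%, against 17.4%). Dnajb9 rose 2.56-fold and Herpud1 2.09-fold, while the factor Xbp1 fell 1.74-fold and Eif2ak3, the kinase PERK, 1.85-fold. Xbp1 was 4595, 6816 and 5539 with H2O2 and 8919, 11059 and 9368 without. The luminal chaperones Hsp90b1, Calr and Pdia3 did not pass, with log2 fold changes between -0.12 and 0.04. Without H2O2 replicate 3, non-treated replicate 1 or non-treated replicate 2 the number of falls was as low as 2.

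Of 31 NRF2 targets and regulators 9 rose and 4 fell, with a median of 0.14. Sqstm1, the autophagy receptor p62, rose most, to 16899, 18709 and 15162 on the H2O2 arrays, against 3827, 3775 and 3095 on the non-treated arrays (4.74-fold). The heme-degrading enzyme Hmox1 was 4566, 4503 and 2737 with H2O2 and 1166, 1268 and 932 without (3.41-fold), and sulfiredoxin Srxn1, which repairs overoxidised peroxiredoxins, 4413, 4134 and 3970.2 against 1532, 1621 and 1457 (2.70-fold). The groups were apart for all 3. The small MAF partners of NRF2, Mafk and Mafg, rose 2.15-fold and 1.82-fold. The glutathione synthesis subunit Gclm, the quinone reductase Nqo1, thioredoxin Txn1, the ferritin chain Fth1 and the pentose phosphate enzyme Tkt did not pass. The exporter Abcc4 fell 2.09-fold.

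Of 20 genes of peroxide and superoxide removal 1 rose (5.0%, against 10.9% of all genes) and 4 fell (20.0%, against 17.4%), with a median of -0.15. Glutathione peroxidase Gpx1 was 15750.2, 18881 and 17224 with H2O2 and 17398, 16586 and 17401 without, a log2 fold change of 0.01 ± 0.115. Catalase, Cat, had a log2 change of -0.33 ± 0.131 (adjusted p = 0.0653), and passed as lower without H2O2 replicate 3 (-0.45) or non-treated replicate 1 (-0.41). The superoxide dismutase Sod1 had one of 0.09 ± 0.183, and passed with the mean of its probe sets (0.50). The thiol reductase Glrx was the member that rose (2.12-fold). Txnip, which inhibits thioredoxin, fell 1.61-fold and the antioxidant sestrin Sesn3 2.02-fold.

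The phagocyte NADPH oxidase, which makes superoxide at membranes, had 2 of 7 measured genes that passed, near the 28.3% of all genes. The regulatory subunit Ncf4 fell 1.46-fold, at 8711, 9042 and 7895 with H2O2 and 12653, 12723 and 11931 without. Rac1 rose 1.31-fold, a call that ended without H2O2 replicate 1, H2O2 replicate 3 or non-treated replicate 2 (log2 between 0.26 and 0.39). Cyba, Ncf1 and the catalytic Cybb did not pass. Among 20 genes of iron and metal handling 5 rose and 4 fell. The zinc exporter Slc30a1 rose 2.86-fold, while metallothionein Mt1 (log2 0.12 ± 0.111) did not pass except with the mean of its probe sets (log2 0.65). The copper transporters Atp7a and Slc31a1 fell 1.79-fold and 1.51-fold and the iron-sulfur enzyme Aco1, an iron sensor, 1.56-fold. As few as 2 metal genes rose when H2O2 replicate 2, H2O2 replicate 3, non-treated replicate 2 or non-treated replicate 3 was left out.

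**Figure D4:**
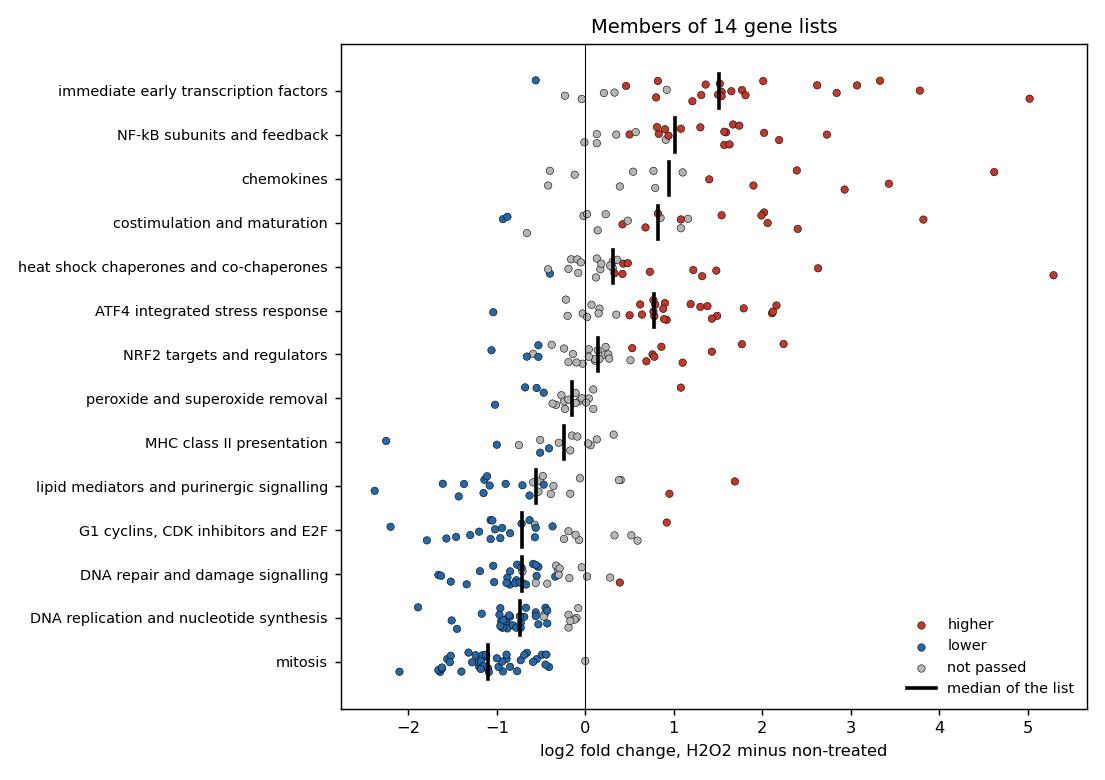
Log2 fold change of every tested member of 14 gene lists, H2O2 minus non-treated, red where it passed as higher, blue as lower and grey where it did not pass; black bars are list medians. Early response lists lie right of 0 with medians up to 1.51, peroxide removal genes sit around -0.15, and the mitosis list lies left with a median of -1.10.

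Of 24 targets of the tumour suppressor p53 5 were higher (20.8%, against 10.9% of all genes) and 8 lower (33.3%, against 17.4%). The cell cycle inhibitor Cdkn1a, known as p21, rose 6.87-fold, at 8449, 9375 and 7159 with H2O2 and 1337, 1318 and 958 without. The kinases Plk2 and Plk3 rose 6.37-fold and 2.89-fold; the log2 fold change of Plk2, 2.67, was 2.04 without non-treated replicate 3, which stood at 9.21. Mdm2, the ligase that degrades p53, passed with a 1.65-fold rise. The falls were Trp53inp1, the sestrin Sesn1 (3.33-fold lower, at 555, 301 and 567 with H2O2 and 996, 1686 and 2237 without), Gtse1 (3.09-fold lower) and 5 others. The death receptor Fas, another p53 target, rose 6.43-fold, with means of 299 with H2O2 and 33.8 without.

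In the BCL2 family and caspases 2 of 17 genes rose (11.8%, against 10.9% of all genes) and 5 fell (29.4%, against 17.4%). The pro-death Bcl2l11, known as BIM, was 4874, 5832 and 4663 with H2O2 and 1679.9, 1768 and 1476 without (3.10-fold), while the survival gene Bcl2 fell 1.65-fold. Mcl1, also a survival gene, rose 1.58-fold (adjusted p = 0.0716 without H2O2 replicate 3). Another pro-death member, Bmf, fell 1.82-fold, and so did the executioner Casp6 (2.20-fold) and the initiator Casp9 (2.07-fold). Casp9 no longer passed with the mean of its probe sets (log2 -0.37). Casp8 and cytochrome c, Cycs, did not pass.

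Cell cycle genes fell together. Of 41 mitosis genes 40 fell (97.6%, against 17.4% of all genes tested), none rose and the median was -1.10. Spc25, a kinetochore subunit, was 294, 333 and 319.9 with H2O2 and 1485, 1089.5 and 1689 without (log2 -2.10 ± 0.183, adjusted p = 6.41e-08). The kinetochore protein Cenpf fell 3.15-fold, the chromosomal passenger kinase Aurkb 3.12-fold, the spindle motors Kif20a, Kif18a and Kif11 3.08-fold, 3.06-fold and 2.94-fold. The groups did not overlap for any of these 6. Kif4 was the member that did not pass, at 491, 514 and 472 with H2O2 and 391, 386 and 779 without. Depdc1a, a mitotic gene named among the 15 largest falls, was 4.90-fold lower.

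Of 37 genes of DNA replication and nucleotide synthesis 29 fell (78.4%) and none rose, with a median of -0.74. Rrm2, the subunit of ribonucleotide reductase made in S phase, was 1178, 1097 and 1371 with H2O2 and 4526, 4019.8 and 5116 without (3.71-fold lower). The polymerase subunit Pole2 fell 2.85-fold, thymidine kinase Tk1 2.74-fold, the origin licensing factor Cdc6 2.25-fold and the clamp loader subunits Rfc4 and Rfc3 1.96-fold and 1.95-fold. The sliding clamp Pcna, at 16096, 14552 and 13991 with H2O2 and 16049, 16019.5 and 16501 without, did not pass, nor did Fen1 and Orc6; Fen1 passed as lower with the mean of its probe sets (log2 -0.65).

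Upstream of them, 18 of 27 G1 and E2F genes fell and 1 rose, the G1 kinase Cdk6, which stood at 6365, 5035 and 5803 with H2O2 and 3405, 2564 and 3146 without (1.89-fold). The repressor E2f8 fell 4.61-fold, with means of 317 with H2O2 and 1514 without, the pocket proteins Rbl1 and Rbl2 3.46-fold and 2.29-fold, and cyclins Ccne1 and Ccna2 2.74-fold and 2.46-fold. Cdkn2c, an inhibitor of CDK4 and CDK6, fell 2.96-fold. Cyclin D2, Ccnd2, had a log2 change of -0.07 ± 0.122. Of 35 DNA repair and damage signalling genes 23 fell and 1 rose, with a median of -0.71. The damage kinases Chek2 and Atm fell 3.16-fold and 2.87-fold, the uracil glycosylase Ung 2.53-fold and the oxidised base glycosylases Neil3 and Neil1 3.10-fold and 2.06-fold. The abasic site nuclease Apex1, which acts after them, had a log2 change of -0.31 ± 0.127 that did not pass. Among chromatin regulators the maintenance methyltransferase Dnmt1 was 2.47-fold and its guide Uhrf1 2.21-fold lower, whereas the H3K27 demethylase Kdm6b rose 5.59-fold. In all 6 of 33 chromatin regulators rose (18.2%, against 10.9% of all genes) and 6 fell (18.2%, against 17.4%). Without H2O2 replicate 1 the falls were 10.

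The cell cycle homology region TTTGAA, a site of the DREAM complex in mitotic genes, was in the windows of 27 of 36 mitosis genes (75.0%), against 14.5% of tested genes, on either strand. CCAAT was in 26 of 36 (72.2% against 42.4%). The E2F site, searched as TTTCCCGC or TTTGGCGC, was in 10 of 31 replication genes (32.3% against 3.38%), 10 of the 24 that fell (41.7%) and 0 of the 7 that did not pass. The stretches below, all on the plus strand, come from members that fell, with the match in capitals: Kif11 (chr19:37376338-37376381) and Ncapg (chr5:45669870-45669924) for the cell cycle homology region, Cdc6 (chr11:98907988-98908045) and Mcm5 (chr8:75109335-75109392) for the E2F site.
Kif11: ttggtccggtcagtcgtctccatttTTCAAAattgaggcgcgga
Ncapg: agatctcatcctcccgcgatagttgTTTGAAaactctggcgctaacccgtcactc
Cdc6: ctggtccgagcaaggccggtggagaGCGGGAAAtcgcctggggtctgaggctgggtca
Mcm5: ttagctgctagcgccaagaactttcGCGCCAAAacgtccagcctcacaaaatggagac

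Of 35 ribosome biogenesis genes 7 rose and 1 fell, with Nip7 1.94-fold, Utp4 1.73-fold and Nop58 1.71-fold higher. Of 32 splicing factors 11 rose and 1 fell, including the helicase Ddx5 (1.56-fold) and the SR proteins Srsf5 (1.61-fold) and Srsf6 (1.51-fold); with the mean of a gene's probe sets the rises were 5, and Srsf6 (log2 0.19) was not among them. Of 30 proteasome genes 9 rose and none fell, among them Psmd8 (1.68-fold) and Psmc6 (1.60-fold). The proteasome count was 4 with arrays centred on their median, and at its lowest 5 when H2O2 replicate 2 or non-treated replicate 3 was left out. Nip7 was 7871, 6842 and 8442 with H2O2 and 3234, 4153 and 4580.2 without.

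In the list of 34 lysosomal and autophagy genes 10 were raised and 1 was lowered. The selective autophagy receptor Tax1bp1 was 4369, 4842 and 4942 with H2O2 and 1889, 1752 and 1572 without (2.70-fold), and Atg12 and Map1lc3a, which build the autophagosome membrane, rose 2.07-fold and 1.99-fold. The lysosomal membrane protein Lamp1 had a log2 change of 0.22 ± 0.115 that did not pass. Mitf, a factor that drives lysosomal genes, fell 1.71-fold.

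Of 33 respiratory chain genes 2 rose (6.06%, against 10.9% of all genes) and 3 fell (9.09%, against 17.4%). Leaving out H2O2 replicate 1, 2 or 3 or non-treated replicate 2 or 3 moved the rises to 0 or 1. Of 28 glycolysis and hypoxia genes 2 rose, or 4 without non-treated replicate 1, and 6 fell, in all close to the 28.3% of all genes that passed. Hexokinase Hk2 fell 2.11-fold while the glycolytic enzymes Aldoa, Pgk1 and Ldha did not pass. Hypoxia-linked genes went opposite ways: Ndrg1 was 9132, 9978 and 8719.9 with H2O2 and 2898, 3478 and 2101 without (3.33-fold higher), and the peptide Adm rose 3.82-fold. Ankrd37 was 286, 395 and 253 with H2O2 and 2445, 1774 and 555 without (4.24-fold lower; log2 -2.08, or -2.71 without non-treated replicate 3). Of 34 mitochondrial ribosome genes 9 fell (26.5%, against 17.4% of all genes) and 1 rose (2.94%, against 10.9%), with Mrpl18 1.59-fold lower. Without non-treated replicate 2 or non-treated replicate 3 as few as 5 fell. Of 27 sterol and fatty acid genes 6 were higher (22.2%, against 10.9% of all genes) and 7 lower (25.9%, against 17.4%). The sterol oxidase Msmo1 and the cholesterol exporter Abcg1 rose 2.01-fold and 1.84-fold, and the exporter Abca1 and the elongase Elovl6 fell 2.16-fold and 1.98-fold, though Abca1 did not pass with the mean of its probe sets (log2 -0.30). As few as 3 of these lipid genes fell without H2O2 replicate 1, H2O2 replicate 3 or non-treated replicate 1.

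Receptors for extracellular nucleotides and lipids were among the falls. Of 24 lipid mediator and purinergic genes 12 fell (50.0%), 2 rose and the median was -0.56. The nucleotide receptors P2ry12, P2ry13 and P2ry14 fell 3.05-fold, 2.69-fold and 2.22-fold, and the oxysterol receptor Gpr183, which guides dendritic cells in lymphoid tissue, 2.58-fold. P2ry14 was 1543, 1552 and 1668 with H2O2 and 3384, 3643 and 3589 without. P2ry6 had a log2 change of -0.59 ± 0.296 that did not pass, with the groups apart. The prostaglandin synthase Ptgs2 rose 3.23-fold at low signal, a call that ended without H2O2 replicate 3 (log2 1.48) or non-treated replicate 1 (log2 1.47).

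Genes of adhesion and matrix breakdown split. The urokinase protease Plau and its receptor Plaur rose together, by 4.17-fold and 3.62-fold. Plau was 1315, 1447 and 1548 with H2O2 and 327, 409.8 and 274 without. The fibronectin receptor chain Itga5 rose 2.61-fold and the GTPase Rhob 3.09-fold, whereas the laminin receptor chain Itga6 fell 2.34-fold. Itga5 no longer passed with the mean of its probe sets (log2 0.63). E-cadherin, Cdh1, which anchors Langerhans cells to keratinocytes, had a log2 change of -0.85 ± 0.29, and its call ended without H2O2 replicate 1, H2O2 replicate 3, non-treated replicate 2 or non-treated replicate 3 (between -0.88 and -0.65). In all 7 of 31 actin and adhesion genes rose (22.6%, against 10.9% of all genes) and 7 fell (22.6%, against 17.4%). Of 13 metalloproteinases and inhibitors 5 rose and 2 fell: the macrophage elastase Mmp12 rose 5.93-fold and Mmp10 4.49-fold, and the sheddase Adam17, which frees TNF and HBEGF from the membrane, 1.78-fold, while the gelatinase Mmp9 fell 1.91-fold.

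Signalling to PI3-kinase and FOXO also moved both ways, with 5 of 25 higher and 3 lower. The kinase Sgk1 rose 3.56-fold, the PI3-kinase adaptor Pik3r5 2.65-fold and the insulin receptor substrate Irs2 2.62-fold. The partner of Pik3r5, the catalytic Pik3cg, fell 2.10-fold, at 1141, 851 and 1228 with H2O2 and 2277, 2289.8 and 2154 without, and the lipid phosphatase Inpp5d fell 1.97-fold. In the TNF receptor family 2 of 14 rose (14.3%, against 10.9% of all genes) and 3 fell (21.4%, against 17.4%). Tnfrsf12a was 2.17-fold higher and Tnfrsf13b and Tnfrsf11a were 2.33-fold and 2.07-fold lower. The TGF-beta and SMAD list had 5 of 19 higher and 1 lower, led by the SMAD repressor Skil (1.86-fold), with Smad4 1.69-fold higher and the receptor Bmpr2 1.42-fold lower (not passed with the mean of its probe sets, log2 -0.12); as few as 2 rose without H2O2 replicate 1, H2O2 replicate 2, non-treated replicate 2 or non-treated replicate 3. Circadian clock genes rose in 4 of 13 cases, among them Rora (1.64-fold; not passed with the mean of its probe sets, log2 0.57), and in as few as 2 without H2O2 replicate 2, non-treated replicate 1 or non-treated replicate 3. Of 256 Zfp genes 31 rose (12.1%) and 25 fell (9.77%), with a median of -0.08 against -0.06 for all genes tested.

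Whether H2O2 cells also differed from cells given other agents was tested as a difference from those groups, in the same fit, where the non-treated arrays entered only the estimate of the spread. Against DNFB 762 genes were higher with H2O2 (6.0%) and 1111 lower (8.75%), and against DPI 2032 were higher (16.0%) and 2266 lower (17.8%). Centring arrays on their median moved the split against DNFB to 407 higher and 985 lower. Without rescaling 22 were called higher and 4 lower against DNFB, with the median log2 fold change of all genes at 0.3 in place of -0.01, and 141 higher and 83 lower against DPI. The comparisons share the H2O2 arrays, and doses and times are not given, so the agent cannot be told apart from its dose and timing. In all 3 comparisons 182 genes were higher with H2O2 (1.43%) and 292 lower (2.30%).

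Trp53inp1 was lower with H2O2 in all 3 comparisons. It was 149, 114 and 199 on the H2O2 arrays and averaged 645 with DNFB, 799 with DPI and 808 without treatment. C1qtnf6, a secreted C1q-domain protein, was 50, 63.7 and 17.2 on the H2O2 arrays and averaged 378 with DNFB, 149 with DPI and 275 without treatment. Kynu averaged 31.1 with H2O2, 123 with DNFB, 147 with DPI and 208 without treatment. For these genes every H2O2 array was below every non-treated array. Fgl2, a secreted modulator of T cells, averaged 2878 with H2O2 and lay between that and the non-treated mean of 13592 with either other agent, at 6171 with DNFB and 6035 with DPI.

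Ier2 was set apart on the upper side, with a mean of 9501 with H2O2, 2623 with DNFB, 2076 with DPI and 1528 without treatment. Hhipl2 averaged 255 with H2O2, 27.1 with DNFB, 65.0 with DPI and 21.7 without. The DPI + DNFB arrays were not compared with H2O2 here, and some of their means lay closer to those with H2O2: Hhipl2 averaged 147 there, Ier2 4034, Atf3 1322, Maff 2673, Ccl3 3082 and Trp53inp1 407. Ccl3, Cd83, Atf3 and Maff were higher with H2O2 than with DNFB, DPI or no treatment, with log2 differences from DNFB of 2.16, 1.39, 1.18 and 0.78 and from DPI of 1.21, 2.40, 1.30 and 0.92. The growth factor gene Pdgfa was 1.54 above DNFB and 1.17 above DPI on the log2 scale, and Icam1 1.92 and 1.40 above them. Egr1 was 4.08 above DNFB on the log2 scale and 1.06 ± 0.419 above DPI, where the adjusted p of 0.0569 did not pass. Against DNFB 6.0% of all genes tested were higher with H2O2 and 8.75% lower, the background for the list counts that follow. In the list of immediate early factors 13 of 26 were higher with H2O2 than with DNFB and 3 lower. Ribosome biogenesis genes were higher in 14 of 35 cases and lower in none, with Tsr1 1.14 above DNFB on the log2 scale. Splicing factors were higher in 12 of 32 cases and lower in none. On the other side 11 of 31 NRF2 genes were lower with H2O2 than with DNFB and none higher. Hmox1 differed by -1.56 and Srxn1 by -1.74 on the log2 scale. The mitosis list fell with H2O2 against no treatment. Against DNFB it had 2 of 41 members higher and 5 lower, near the shares of all genes. Lower than with DPI were 39 of 41, against 17.8% of all genes. In the NRF2 list 12 of 31 were higher with H2O2 than with DPI and 5 lower, against 16.0% and 17.8% of all genes. The immediate early list had 11 of 26 higher and 6 lower than with DPI. These list counts against DNFB and DPI were not repeated under the alternatives described below.

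**Figure D5:**
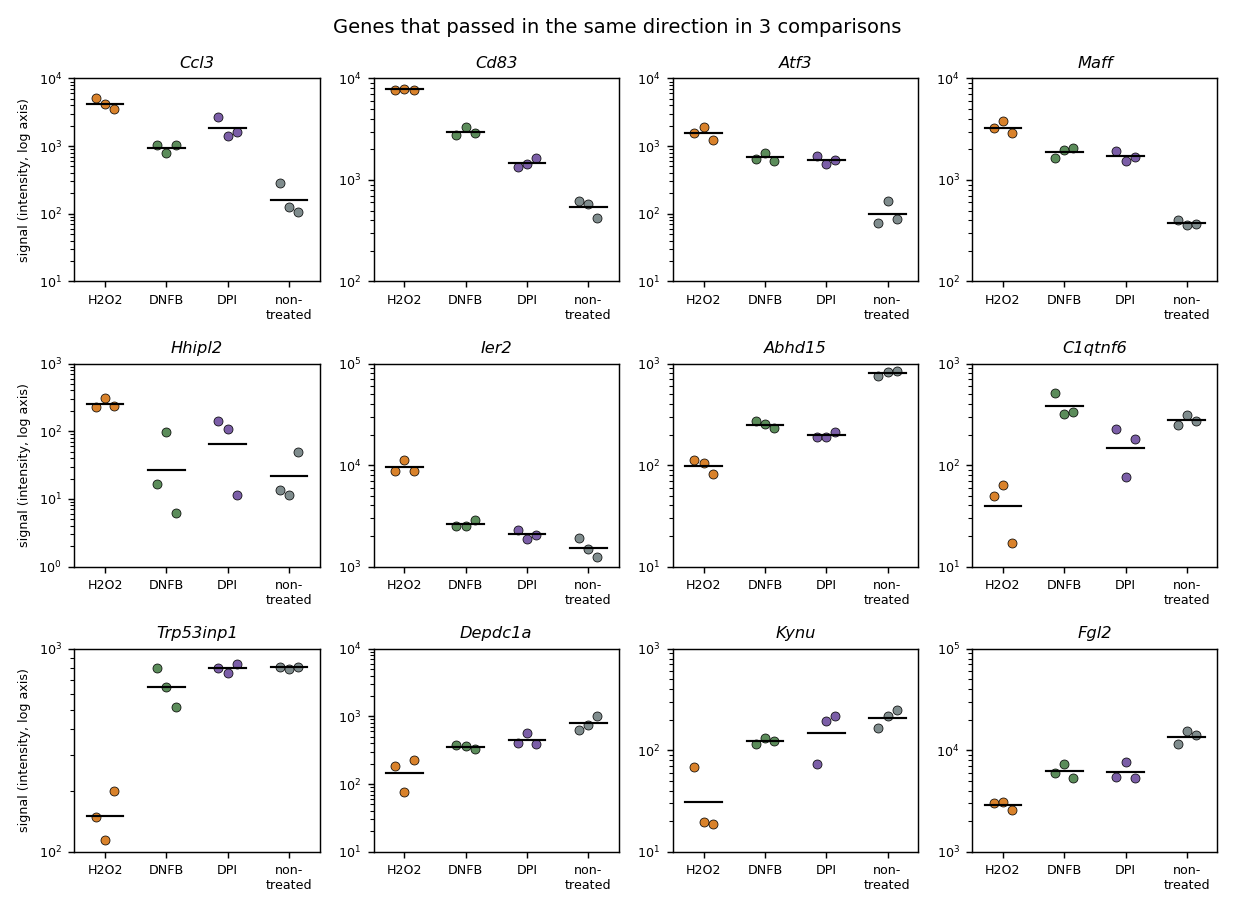
Rescaled signal on each array, on log axes that differ between panels, for the 12 named genes that passed in the same direction against non-treated, DNFB and DPI arrays; groups run H2O2, DNFB, DPI, non-treated from left to right and bars are group means on the log scale. Among the groups drawn, which leave out DPI + DNFB, Trp53inp1 averages 150 with H2O2 and 645 to 808 in the other 3, and Ier2 averages 9501 with H2O2 and 1528 to 2623 in the other 3.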

How the data were processed

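TRIzol and RNeasy Plus columns gave the total RNA, which was labelled as biotinylated cRNA, per the labels' protocols. The deposited values are intensity, 1 linear signal per probe set, made with MAS5 in Affymetrix Expression Console per the submitters' processing notes, without versions. Precision is limited by the number of arrays. The table held 45101 probe sets, of which 64 controls were left out. Of the other 45037, 34945 had 1 gene symbol, 932 several and 9160 none. Gene identifiers were matched to the RefSeq table for 34741 probe sets and 204 kept the platform's symbol.

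The deposited trimmed mean was 250 on 6 of 15 arrays, among them replicate 1 of each group, and 500 on the other 9, so each array was rescaled to 500. The log2 was taken of the rescaled signal plus 15. Probe sets with a mean log2 signal at or above the 40th percentile (6.22) were kept (27022), and the brightest represented each gene. All 15 arrays were fitted in limma 3.58.1 (R 4.3.3; lmFit, contrasts.fit, eBayes with trend; 10 residual degrees of freedom), with Benjamini-Hochberg adjustment over the 12701 genes of each comparison. Group means are geometric. The median SE of a difference was 0.197. Only the limma fit was tested on simulated data, not the rescaling, the filter or the choice of probe set.

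The members and gene lists were chosen with earlier results of these data known. Named genes were the 15 largest rises and falls whose groups did not overlap, up to 6 members of each list that passed and up to 3 bright ones that did not, 24 genes whatever their values, and the 6 largest rises and falls shared by all 3 comparisons, leaving out predicted genes; the text names 411 at most by this rule and uses part of them. Chac1, Egr2, Srf, Mcm5 and Ncapg were named for a promoter match, and Cdk6 and Nr4a2, outside the rule and after their values were seen, as the only member of their list to go one way. Cd207, Mpo, S100a8, S100a9, Camp, Cpa3, Fcer1a, Ms4a2, Cd2, Cd5, Lat, Cd3e, Cd3d and Cd3g were named as cell type markers. Promoter sequences are RefSeq's, build GRCm38.p6, with 250 bases before and 50 after the start. Alternatives covered scaling, filters, probe sets, the variance model, blocks, RNA quality and each array left out.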

Additional observations from a re-analysis of the deposited data

How the results depend on the processing

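The count of genes higher with H2O2 than without treatment, 1380, was 2349 with every kept probe set tested by itself, 719 within the arrays of the lower scaling target, 100 with the values as deposited and 903 at an adjusted p below 0.01. The count of lower genes, 2211, was 1065 within the lower target and 73 as deposited. Against DNFB the 762 higher genes became 407 with arrays centred on their median, 1166 with every probe set, 136 within the higher target, 227 within the lower target, 22 as deposited and 320 at the stricter threshold. The 1111 lower genes became 217, 492, 4 and 604 within the higher target, within the lower target, as deposited and at the stricter threshold. Against DPI the 2032 higher genes became 3799 with every probe set and 141 as deposited, and the 2266 lower genes 3526 with every probe set, 1242 within the lower target and 83 as deposited. With every kept probe set tested by itself the counts are of probe sets, several for some genes, and not of genes. The cause of these changes was not tested. The settings differ in the number of arrays within a target, in the number of probe sets tested and, as deposited, in the 2 unequal targets. Leaving out 1 array at a time gave 1104 to 1199 genes higher and 1803 to 2001 lower than non-treated, 455 to 607 and 750 to 942 against DNFB, and 1764 to 1870 and 1846 to 2077 against DPI, the last 2 pairs added after the data were seen.

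Of 216 genes named as passed, 136 lost the call with the values as deposited, 42 within the lower target, 11 within the higher target, 10 with the mean of a gene's probe sets and at most 8 under any other alternative. None of the 216 changed direction while passing under any of these alternatives. Single arrays also moved small list counts: the lower MAP kinase phosphatases were 1 in place of 2 without H2O2 replicate 1 or non-treated replicate 1, and the higher DNA repair gene was lost without non-treated replicate 3. With the replicate number as a block 3944 genes passed, in place of 3591, and 3582 of the 3591 did so in the same direction. Deviations of arrays with the same number correlated at 0.0421, 0.0544 and 0.0829. These values lay under the limit of 0.1 set for pairing, yet each array correlated best with its own number. For non-treated replicate 1 this was nearly a tie, at 0.0421 with H2O2 replicate 1 and 0.042 with H2O2 replicate 2. Arrays of different numbers correlated between -0.102 and 0.042. The check thus cannot decide whether the numbers pair the arrays, and the main fit did not pair them. The lower target holds 1 H2O2 and 1 non-treated array, whose spread was taken from the 2 DNFB arrays there. Signal over background could not be set for single genes, since detection calls were not used here; dim genes had to change more to pass.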
